A study of Homo sapiens with 8 samples.

Results

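BRG1 peaks that lay inside gene bodies were taken from the CUT&RUN peak list of control HCT-116 cells, which come from a human colorectal carcinoma. Members were chosen by presence in that list, which its signal decides, and by position: a peak was kept when it overlapped no peak of either IgG list by 1 bp, and when its midpoint lay inside a protein-coding RefSeq gene (hg38) and more than 1 kb from every protein-coding gene end. Of 53085 peaks on chromosomes 1 to 22 and X in that list, 33596 lay outside IgG peaks, and 15227 of these (45.3%, 95% Wilson interval 44.8 to 45.9) met the rule. The other 6644 lay within 1 kb of a gene end and 11725 lay outside genes. All 8 lists of the study together held 263613 peaks.

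The study profiled BRG1 and Flag-tagged wild type actin by CUT&RUN, in which an antibody brings a nuclease to its target and the released DNA is sequenced. For each antibody there was 1 library of control cells (genotype label SETD3 CT) and 2 of SETD3 knockout cells (SETD3 KO), named KO1 and KO2. An IgG library of control cells served each arm. SETD3 is the enzyme that methylates actin on a histidine. It is not stated if KO1 and KO2 come from 2 clones or 2 cultures, how the knockout was made, or whether the Flag arm IgG cells carried the tagged actin. The title of that IgG library holds the word Empty, which is not explained. With 1 control library per antibody no test over samples could be made, and every interval below covers counting error only.

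BRG1, encoded by SMARCA4, is an ATPase of the SWI/SNF (BAF) complexes, which move and evict nucleosomes. Actin and actin-related proteins are subunits of these complexes. SWI/SNF is known for work at enhancers, many of which lie inside genes, often together with AP-1 and TEAD factors, and genes can also hold internal promoters. The RefSeq table used here gives no exons or introns, so a peak could be placed in a gene but not in an exon, intron or UTR.

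The DNA under some of these peaks could be read where a peak covered a transcription start listed by RefSeq inside a gene. The 5 stretches below were chosen after their values were seen, to show the kinds of site in the set: peaks found in both KO lists, in one, in neither, and with Flag-actin. Each is the 250 bases before a listed start (GRCh38, the hg38 build), printed 5′ to 3′ in the direction of transcription. Capitals mark TGANTCA, a broad form of the AP-1 recognition sequence in which N is any base, and GGGCGG, the GC box. Both were sought on either strand, so that GGGCGG on the other strand reads CCGCCC.
SMAD3, chr15:67125492-67125741, plus strand: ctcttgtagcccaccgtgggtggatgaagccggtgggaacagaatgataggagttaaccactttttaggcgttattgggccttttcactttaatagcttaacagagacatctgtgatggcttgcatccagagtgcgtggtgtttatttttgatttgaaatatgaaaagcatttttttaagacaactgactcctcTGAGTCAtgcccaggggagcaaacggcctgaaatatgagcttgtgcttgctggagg
DLGAP1-AS2, chr18:3603487-3603736, plus strand: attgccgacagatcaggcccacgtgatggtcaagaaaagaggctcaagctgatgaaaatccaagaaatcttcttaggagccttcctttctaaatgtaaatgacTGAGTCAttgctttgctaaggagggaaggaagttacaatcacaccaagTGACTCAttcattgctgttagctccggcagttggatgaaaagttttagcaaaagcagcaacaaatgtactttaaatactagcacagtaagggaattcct
INPP4B, chr4:142405447-142405696, minus strand: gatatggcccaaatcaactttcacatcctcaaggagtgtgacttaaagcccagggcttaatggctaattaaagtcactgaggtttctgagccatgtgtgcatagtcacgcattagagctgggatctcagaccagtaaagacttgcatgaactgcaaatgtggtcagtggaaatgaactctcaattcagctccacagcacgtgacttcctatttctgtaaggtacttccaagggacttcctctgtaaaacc
C1GALT1, chr7:7182294-7182543, plus strand: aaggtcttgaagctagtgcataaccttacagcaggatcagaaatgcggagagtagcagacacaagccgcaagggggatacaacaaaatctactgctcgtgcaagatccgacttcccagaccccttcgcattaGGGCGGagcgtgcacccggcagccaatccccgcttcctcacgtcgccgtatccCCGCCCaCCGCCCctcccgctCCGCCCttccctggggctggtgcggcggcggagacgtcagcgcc
LOC100287036, chr16:89320202-89320451, plus strand: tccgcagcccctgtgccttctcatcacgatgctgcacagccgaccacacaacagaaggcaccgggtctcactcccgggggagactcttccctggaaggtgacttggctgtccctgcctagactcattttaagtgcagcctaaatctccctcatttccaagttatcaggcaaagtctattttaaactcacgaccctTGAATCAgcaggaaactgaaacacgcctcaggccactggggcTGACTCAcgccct

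The SMAD3 stretch held 1 AP-1 sequence and lay under a peak of 1260 bp (chr15:67124901-67126160) that both KO lists also held. DLGAP1-AS2 is an antisense RNA that starts inside DLGAP1, and its stretch held 2 AP-1 sequences under a peak of 1500 bp (chr18:3602801-3604300), also present in both KO lists. The INPP4B stretch, at an internal start of a phosphoinositide phosphatase gene, held neither sequence and lay under a peak of 1290 bp that no KO list held. The stretch of C1GALT1, a glycosyltransferase gene, held 4 GC boxes and no AP-1 sequence, and its peak of 960 bp was in KO2 only. The stretch of LOC100287036, inside ANKRD11, held 2 matches to TGANTCA, which read TGAATCA and TGACTCA. Its peak of 700 bp was in the Flag-actin control list and in neither BRG1 KO list.

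Over all listed starts inside gene interiors, 781 windows of 300 bases (250 before the start and 50 after) overlapped one of the gene body peaks and 7430 did not. TGANTCA occurred in 12.9% of the overlapped windows (95% Wilson interval 10.8 to 15.5) and in 9.33% of the others. It was in 7.68% of all 34961 windows and in 4.2% of the 4593 windows overlapped by gene-end peaks. GGGCGG occurred in 63.0% of the overlapped interior windows, 29.4% of the interior windows without a peak, 45% of all windows and 77.5% of the gene-end windows. GGAATG, the core bound by TEAD factors, was in 14.9% of the overlapped interior windows and 16.5% of the others, and CTTTGAT, the TCF/LEF sequence, in 1.15% and 3.35%. The overlapped windows were also richer in CpG, with a median of 22 CpG against 6, so the sequences were not compared at equal base composition. A match describes the letters and does not show binding. Chromosome 8 has no listed starts in the table and was left out of all counts that use starts or strand.

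The gene body peaks were short and mostly weak. Their width was 210 bp in the median (quartiles 140 and 290 bp, range 20 to 2040 bp), and 38 were at least 1000 bp wide. The total signal, the sum over a peak that the authors deposited, ran from 4164 to 91165 with a median of 5216. The lowest value is also the lowest of the whole list. The median maximum signal was 12 steps of 4.38, the smallest unit in which this library's signal changes. Signal chose the list, so these values describe the members and are no finding. Across the 1 kb boundary, the 148 members up to 100 bp inside it had a median total signal of 5435, and the 163 peaks inside genes up to 100 bp short of it had 5172.

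The members lay close to one another. The median distance to the nearest other member was 12600 bp, and 37.6% of members had another within 5 kb. The peaks of the BRG1 arm IgG library inside genes, placed by the same rule, were 41865 bp apart in the median, and 10.4% had another within 5 kb, in a smaller set of 11391 peaks. Of the members, 14916 lay in 1 gene, 302 in 2 overlapping genes and 9 in 3 or more, and the distance to the nearest gene end was 24164 bp in the median.

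Per megabase, members became fewer away from gene ends. BRG1 control peaks numbered 28.4 per Mb of interior at 1 to 2 kb from the nearest end (95% Poisson interval 26.8 to 30.2), 17.5 at 2 to 5 kb, 12.8 at 20 to 50 kb and 7.80 beyond 100 kb. The mean over all 1218.91 Mb of gene interior was 12.5 per Mb. IgG peaks of the BRG1 arm changed little over the same bands, from 9.85 per Mb at 1 to 2 kb to 8.72 beyond 100 kb. The Flag-actin control fell from 34.6 to 4.42 per Mb. BRG1 KO1 fell from 3.80 to 1.95 and KO2 from 8.11 to 3.04. These are densities of listed peaks, and each list was cut by its own threshold, so slopes can be read within a list and heights cannot be set between lists.

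**Figure D1:**
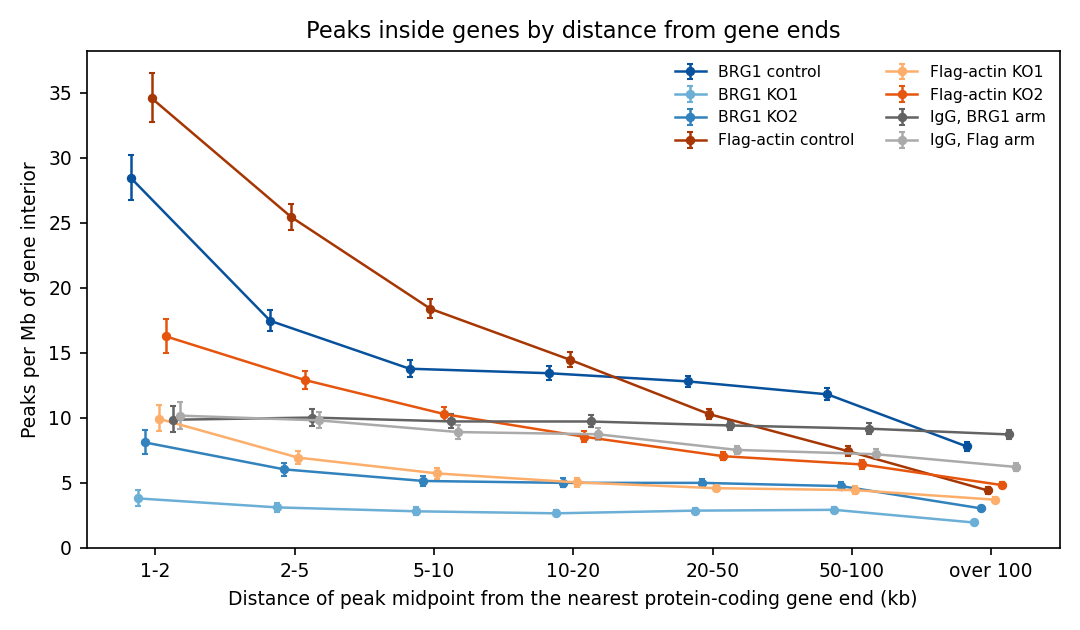
Peaks per Mb of gene interior (y axis) by distance of the peak midpoint from the nearest protein-coding gene end in kb (x axis), for the 8 lists, with 95% Poisson intervals for counting error. The BRG1 control falls from 28.4 to 7.80 per Mb and the Flag-actin control from 34.6 to 4.42, while the BRG1 arm IgG stays between 8.72 and 10.0.

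Near gene ends the density was higher on the 5′ side. Among genes with a known strand, members numbered 40.9 per Mb at 1 to 2 kb downstream of the 5′ end (95% Poisson interval 37.6 to 44.5) and 18.1 per Mb at 1 to 2 kb upstream of the 3′ end (15.9 to 20.5). At 10 to 20 kb the values were 13.7 and 11.2. Flag-actin control peaks lay the other way, with 26.2 per Mb on the 5′ side and 34.7 on the 3′ side at 1 to 2 kb, and 16.5 against 28.3 at 2 to 5 kb. The IgG peaks of the BRG1 arm gave 9.84 and 11 at 1 to 2 kb. In the BRG1 KO lists the 5′ value was again the higher, at 5.15 against 3.21 in KO1 and 10.4 against 5.98 in KO2.

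**Figure D2:**
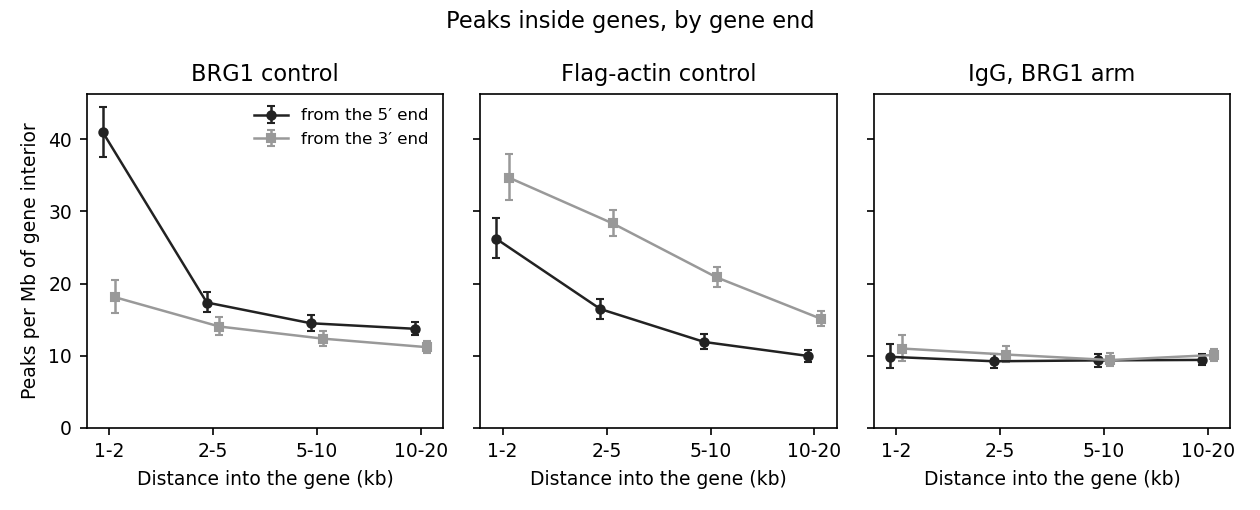
Peaks per Mb of gene interior (y axis) by distance into the gene in kb (x axis), from the 5′ end and from the 3′ end, in panels for the BRG1 control, the Flag-actin control and the BRG1 arm IgG, with 95% Poisson intervals for counting error. At 1 to 2 kb the BRG1 control is higher on the 5′ side, 40.9 against 18.1, and the Flag-actin control is higher on the 3′ side, 34.7 against 26.2.

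Part of the set lay at transcription starts that RefSeq lists inside a longer gene. Of the 14360 members off chromosome 8, 1195 (8.32%, 95% Wilson interval 7.88 to 8.78) had their midpoint within 1 kb of a listed start, a zone that holds 1.27% of interior bases. The same share was 1.34% for IgG peaks of the BRG1 arm, 4.29% for the Flag-actin control, 5.50% for BRG1 KO1 and 7.87% for KO2. The other 13165 members were more than 1 kb from every listed start.

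A BRG1 control peak inside the body was found in 6183 of the 18680 protein-coding genes long enough to have an interior, a background of 33.1%. The same count gave 12.3% in BRG1 KO1, 18.7% in BRG1 KO2, 31.8% in the Flag-actin control list, 21% and 28.1% in its KO1 and KO2 counterparts, and 30.8% and 28.9% in the IgG lists. Of the genes with a member, 3226 held exactly 1, 724 held at least 5 and 185 held at least 10. Those 185 genes held 3128 members, 20.5% of all. Gene length moved with these counts. A member was found in 8.64% of genes of 2 to 10 kb, 39.8% of genes of 30 to 100 kb and 89.0% of genes over 300 kb, while members per 100 kb of interior went the other way, from 2.90 to 0.833. IgG peaks of the BRG1 arm went from 1.14 to 0.882 per 100 kb.

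The gene with most members was PCDH7, a protocadherin gene for cell adhesion (chr4:30720369-31146800). It held 102 BRG1 control peaks in its body, against 10 in KO1 and 25 in KO2, and against 3 and 2 IgG peaks in the BRG1 and Flag arms. NSMCE2, which encodes a SUMO ligase of the SMC5/6 complex, held 71, 12 and 29 in control, KO1 and KO2. RAD51B, a gene of homologous recombination, held 53, 12 and 8. In each of these genes both KO lists were below the control list, as they were in length over the whole genome.

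VTI1A, a SNARE gene of vesicle transport, held 49, 9 and 11 BRG1 peaks in control, KO1 and KO2, and TCF7L2, nearby on chromosome 10, held 34, 9 and 13. TCF7L2 encodes the transcription factor that carries β-catenin to Wnt target genes. GSE1, which encodes a coiled-coil protein, held 40, 5 and 12, with 103 peaks in the Flag-actin control. SMAD3, the intracellular transducer of TGF-β signals, held 40, 5 and 14. CUEDC1 held 37, 9 and 7, and DLGAP1, which encodes a scaffold of synapses, held 33, 5 and 13.

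TNIK, a kinase gene of the Wnt pathway (chr3:171058414-171460408), had the fewest KO peaks of the 10 genes with most members. It held 36 BRG1 control peaks, 2 in KO1 and 0 in KO2, and no peak of either IgG list. A KO peak overlapped 1 of the 36 members, in KO1. Of its 12 members in the highest signal quintile of the BRG1 control peaks outside IgG, 11 had no overlapping KO peak, where all members in that quintile had none in 51.8% of cases. In the other 9 genes the counts were 25 of 37 in PCDH7, 12 of 27 in NSMCE2, 6 of 12 in RAD51B, 6 of 17 in VTI1A, 4 of 8 in GSE1, 8 of 16 in SMAD3, 11 of 16 in CUEDC1, 6 of 15 in TCF7L2 and 5 of 12 in DLGAP1. When every BRG1 list was shortened to the 23651 strongest peaks, TNIK held 14, 2 and 0 and PCDH7 45, 10 and 15 in control, KO1 and KO2. NSMCE2 then held 36, 12 and 19, RAD51B 18, 12 and 4, VTI1A 25, 9 and 7 and GSE1 13, 5 and 9. SMAD3 held 21, 5 and 10, CUEDC1 22, 9 and 3, TCF7L2 17, 9 and 7 and DLGAP1 17, 5 and 5. RAD51B thus came closest to its control count in KO1, and GSE1 in KO2. Over all genes the shortened lists held 3823, 3252 and 2874 gene body peaks. The gene was singled out after its values were seen, and its difference from other genes was not tested.

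**Figure D3:**
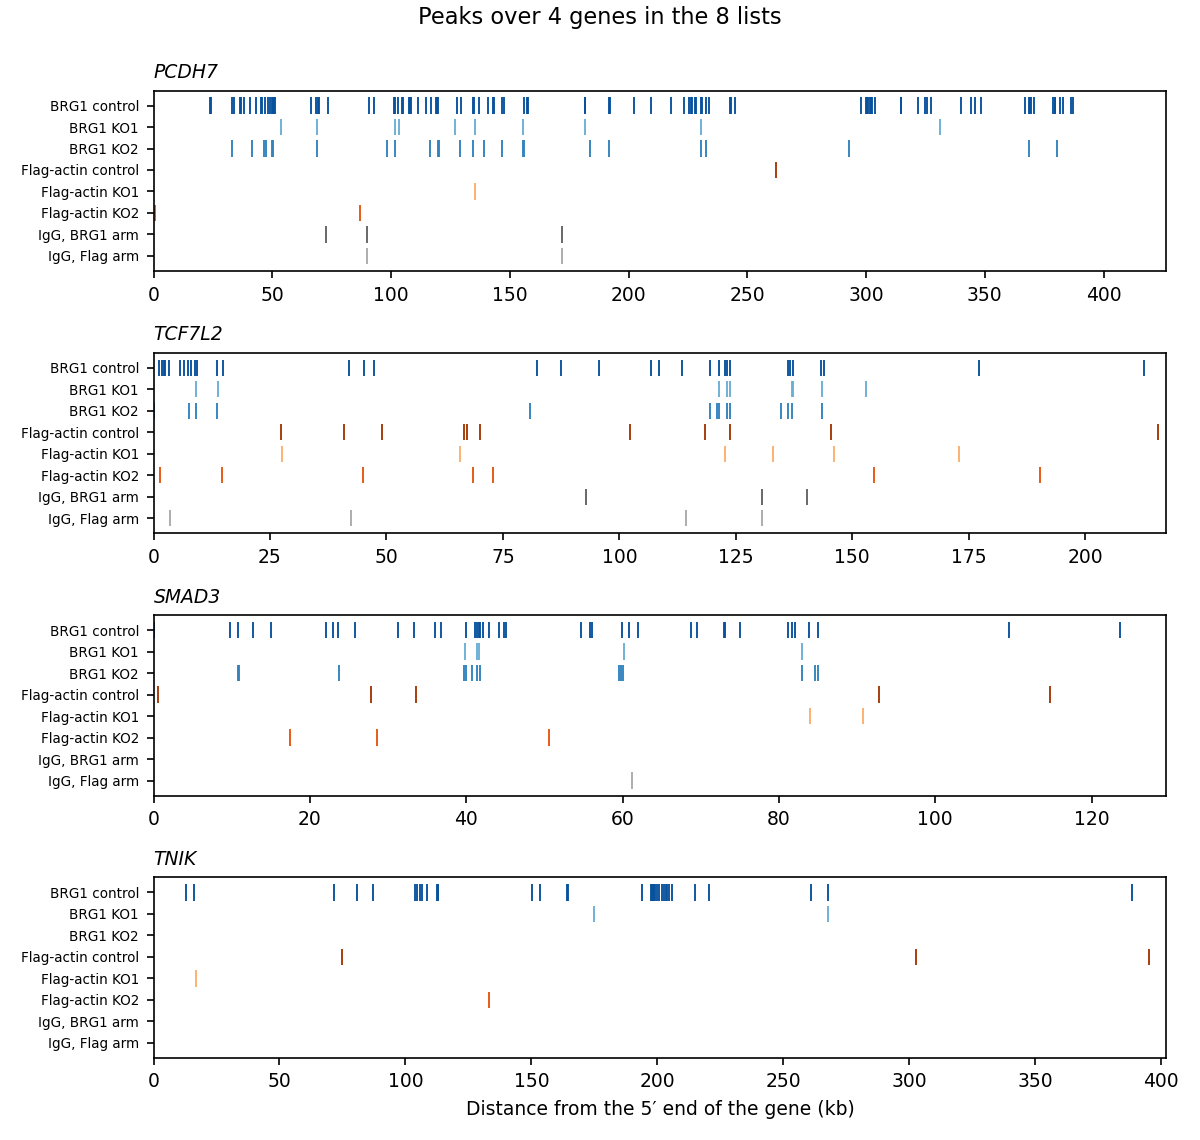
Positions of peak midpoints along PCDH7, TCF7L2, SMAD3 and TNIK, in kb from the 5′ end of each gene (x axis), with 1 row per list and 1 tick per peak; peaks at gene ends are drawn too, and antibody peaks that overlap IgG peaks are left out. In TNIK the BRG1 control row has 36 gene body peaks, KO1 has 2 and KO2 has 0.

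Among genes with at least 5 members, the densest was BCL9L, which encodes a β-catenin coactivator (chr11:118896136-118925926), with 12 members or 45.9 per 100 kb of interior. DUSP5, a nuclear phosphatase of ERK induced by ERK signalling, had 43.0 per 100 kb from 5 members. None of the 5 overlapped a KO peak, as was so for 84.0% of all members. SMIM3 had 41.9, CYB561 40.5, CUEDC1 40.1 and TNS2, a tensin gene of focal adhesions, 39.2. WFDC3 had 38.3, MISP, an actin-binding protein of the mitotic spindle, 36.0, LMNA, the gene of the nuclear lamins A and C, 34.2 and GSG1 33.1. In LMNA the BRG1 counts were 19 in control, 1 in KO1 and 10 in KO2. The genes that the study itself turns on each held a member, as did 33.1% of all genes with an interior. Members per 100 kb of interior numbered 2.36 in SETD3, against 1.46 for genes of 30 to 100 kb. They numbered 2.02 in SMARCA4 and 0.567 in SMARCA2, against 1.33 for genes of 100 to 300 kb. SETD3 held 2 control peaks and 4 in each KO, SMARCA4 held 2, 1 and 1, and SMARCA2, the other SWI/SNF ATPase, held 1, 0 and 0. In the body of SETD3 the Flag arm IgG list held 8 peaks and the BRG1 arm IgG list 0. A further 4, 8 and 7 BRG1 peaks there, in control, KO1 and KO2, overlapped IgG peaks and were left out.

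By chromosome, members were densest on chromosome 17 (26.8 per Mb of interior), 21 (21.4), 19 (21.0) and 16 (18.7), and sparsest on X (2.52). BRG1 arm IgG peaks numbered 9.47 per Mb on chromosome 17 and 7.55 on X. The Flag-actin control list was densest on the same chromosomes, at 42.2 on 17, 35.2 on 21, 32.5 on 19 and 32.7 on 16. It was also sparsest on X, at 0.814, so the order was not particular to the members. DNA copy number was not taken into account here or in the counts by gene.

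The question of what remained without SETD3 was asked by overlap with the BRG1 KO lists. Of the members, 7.59% overlapped a KO1 peak (95% Wilson interval 7.18 to 8.02) and 12.7% a KO2 peak (12.1 to 13.2), against a background over all BRG1 control peaks outside IgG of 7.16% and 13.7%. The mean over the 2 KO libraries was 10.1% ± 3.59 (SD, n = 2). A member overlapped a peak in both KO lists in 4.25% of cases (background 3.89%) and in neither in 84.0% (83.4 to 84.6; background 83.1%). These shares lay close to those of the whole list, so they are not read as a result about gene bodies. The absence came with shorter KO lists. The lowest total signal among gene body peaks was 6228 in KO1, 5182 in KO2 and 4164 in the control. The smallest unit of signal also differed, at 11.5 in KO1, 9.09 in KO2 and 4.38 in the control. These lowest values therefore cannot be set between lists. With every BRG1 list shortened to its 23651 strongest peaks, the share with no KO peak was 63.6% in place of 84.0%. Beyond this, the part of list length and threshold in the absence was not tested.

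Overlap rose with signal. In the lowest signal quintile of the BRG1 control peaks outside IgG, 1.49% of members overlapped KO1 and 2.77% KO2, and in the highest quintile 26.7% and 38.8%. Of the 100 members with the highest total signal, 76 overlapped KO1, 88 overlapped KO2 and 7 overlapped neither. Among the 33 members wider than 1000 bp, 72.7% overlapped KO1 and 87.9% KO2. Gene-end peaks were overlapped by KO1 in 6.08% of cases and by KO2 in 18.7%, and peaks far from genes in 7.22% and 12.1%. In the highest quintile, members and far peaks had close values, with neither KO at 51.8% and 51.4%, and gene-end peaks had 57.9%. Members within 1 kb of a listed start had no KO peak in 77.9% of cases (95% Wilson interval 75.5 to 80.2) and the others in 84.6% (84.0 to 85.2). None of these differences was tested, since the peaks of 1 library are not replicates.

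**Figure D4:**
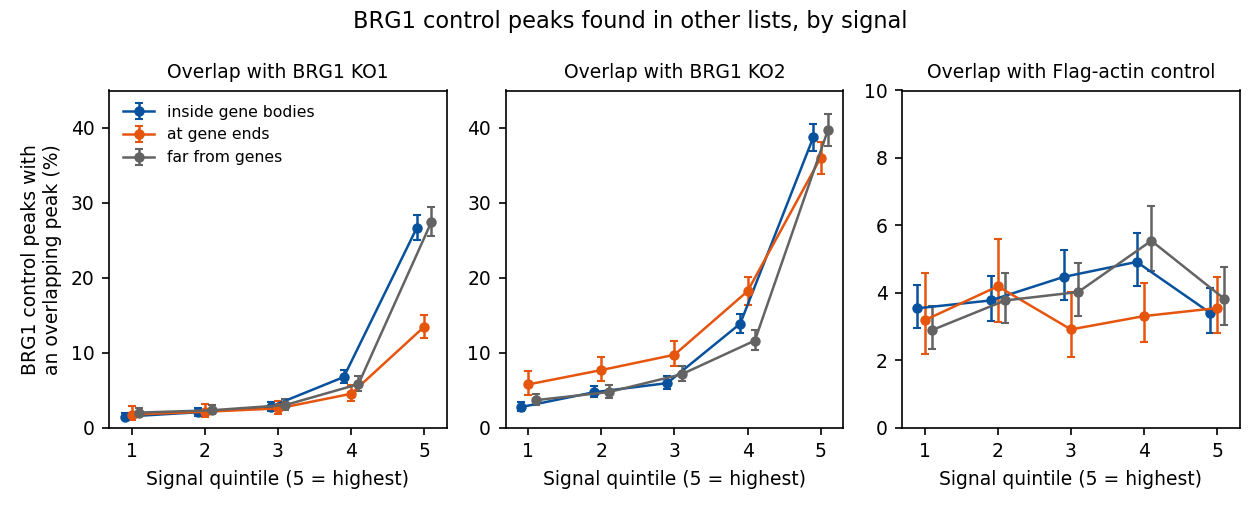
Percent of BRG1 control peaks outside IgG with an overlapping peak (y axis) in BRG1 KO1, BRG1 KO2 and the Flag-actin control, by quintile of total signal (x axis, 5 the highest), for peaks inside gene bodies, at gene ends and far from genes; bars are 95% Wilson intervals for counting error. For gene body peaks the share rises from 1.49% to 26.7% in KO1 and from 2.77% to 38.8% in KO2, while the Flag-actin share rises from 3.54% to 4.92% in quintile 4 and is 3.42% in quintile 5.

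Read from the KO side, 1208 of 3252 KO1 peaks inside gene bodies (37.1%) and 2055 of 5708 KO2 peaks (36.0%) overlapped a BRG1 control peak. KO peaks at gene ends did so in 53.6% (KO1) and 55.7% (KO2) of cases, and those far from genes in 32.3% and 31.5%. Every class of KO peak thus held peaks absent from the control list, which is not read as a result about gene bodies. By gene, 1785 genes with a member had a KO1 body peak, 2571 a KO2 body peak, 1244 both and 3071 neither, and 138 genes had a body peak in both KO lists and no member. In the 185 genes with at least 10 members, a median of 20% of members overlapped a KO peak (quartiles 10 and 30%). In 23 of these genes no member did, among them MYH9, the non-muscle myosin heavy chain gene, with 10 members, and ANKRD11, a chromatin regulator gene, with 11. Of all members, 84.0% had no KO peak, and no gene was tested against that share. The highest share, 57.9%, was in MACF1, which encodes a linker of actin and microtubules and held 19 members.

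The strongest member lay in TCF7L2 (chr10:113087141-113087880), with a total signal of 91165. Both KO lists held a peak there, at the 77.4 percentile of total signal in the KO1 list and the 82.3 percentile in the KO2 list. ABCC3, a drug efflux transporter gene, held the next (chr17:50638851-50639760, 70916), followed by TIAM1, an exchange factor of the GTPase Rac (62501), and SMAD3 (chr15:67148441-67150480, 61843), whose peak of 2040 bp was the widest of the set. Others among the 10 strongest lay in NSMCE2 (2 peaks), SLC39A11, a zinc transporter gene (2 peaks), ABTB2 and DLGAP1. All 10 were in the KO2 list and 9 in the KO1 list, the exception being a peak of SLC39A11 (chr17:72661251-72662080). In the list of strongest members found in both KO lists that exception gives way to a peak in LMTK3, a kinase gene.

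The strongest members with no KO peak began with one in TNIK (chr3:171354171-171355340), with a total signal of 41068. INPP4B (chr4:142405181-142406470), at the internal start printed above, had 38657. FKBP5, a chaperone of steroid receptors, had 38614 (chr6:35601271-35602260). A peak shared by the overlapping genes FRMD8 and SLC25A45 had 32872, and peaks in RASSF3 and in ITSN1, an endocytic scaffold gene, had 32258 each. EXOC6, ETS1, ARSG and CACNG2 held the other 4, between 27174 and 28927. The EXOC6 peak was 110 bp wide. IgG peaks of the BRG1 arm inside genes were 40 bp wide in the median.

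The Flag-actin control list overlapped 612 members (4.02%, 95% Wilson interval 3.72 to 4.34), against a background of 3.88%. This value moved with the settings, to 26.8% without removal of IgG sites, 7.53% with a gap of up to 500 bp and 1.93% in the upper parts of the lists by signal. Flag-actin KO1 overlapped 2.14% and KO2 3.21% of members, against 2.26% and 3.4%. By BRG1 signal quintile from lowest to highest the share was 3.54, 3.78, 4.47, 4.92 and 3.42%, with overlapping intervals for neighbours up to the fourth. It was higher in narrow peaks. Members up to 100 bp wide overlapped the Flag-actin control in 11.7% of cases and those over 100 and up to 300 bp in 3.14%. The Flag-actin KO lists showed the same, with 13.2% against 1.02% in KO1 and 15.4% against 1.82% in KO2. Of the 612 members with Flag-actin, 83.7% had no BRG1 KO peak, close to the 84.0% of all members.

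The strongest members with a Flag-actin control peak lay in TCF7L2 (chr10:113073701-113074230, total signal 40367) and SYTL3, a vesicle protein gene. The TCF7L2 peak was also in both BRG1 KO lists. Next came ANKRD11, LMNA, SLC35A1, PEG10, TMC8, ERICH1, EPHA2, an ephrin receptor gene, and MACF1, between 25728 and 20644. Some genes held more Flag-actin control peaks than members. RPTOR, the scaffold of mTORC1, held 52 Flag-actin control peaks and 23 members, and 5 of these members overlapped a Flag-actin peak. RBFOX3, a neuronal splicing factor gene, held 97 and 17, and 2 of its members overlapped one. Both genes are named here for their many Flag-actin peaks, so these overlaps are not set against the 4.02% of all members. Among other such genes, MAD1L1 held 26 Flag-actin control peaks and 6 members, 2 of them overlapping. GSE1 held 103 and 40, with 3 overlapping. RPS6KA2 held 18 and 14 and RXRA 15 and 8, with none overlapping. No difference was tested.

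Some small RNA genes lay under a member. Members overlapped 17 of the 864 miRNA hairpins that RefSeq lists in gene interiors (1.97%), against 3 and 4 for the IgG lists, 3 in each BRG1 KO list and 22 for the Flag-actin control. Members covered 0.294% of interior bases, but a hairpin counts as overlapped when any of its bases is, so the shares are not on the same footing. The mature sequences of 2 of them are given because they lie in genes with many members, with the seed (bases 2 to 8) in capitals.
hsa-miR-4295: cAGUGCAAuguuuuccuu
hsa-miR-5093: aGGAAAUGaggcuggcuaggagc

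The hairpin of hsa-miR-4295 (chr10:112634170-112634254) lay in VTI1A under a member that no KO list held. That of hsa-miR-5093 (chr16:85306226-85306325) lay in GSE1 under a member that KO1 held.

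Genes were then read by function over 19 lists, chosen with earlier results of these data known. For each list the share of genes with a member is set beside the share that all genes of the same length classes give, since long genes hold more peaks. No list was tested, and the counts describe these genes only.

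The widest gaps were in the immediate early and TGF-β lists. Of 29 immediate early, AP-1 and ERK feedback genes, 14 held a member (48.3%), against 18.5% by length. By gene in control, KO1 and KO2, ATF3, a stress-induced AP-1 family factor, held 5, 1 and 3 peaks, ETV5, an ETS factor, 4, 3 and 0, and SPRED2, an inhibitor of the Ras pathway, 4, 4 and 5. In KO1 4 of the 29 genes had a body peak, against 5.2% by length, and in KO2 5 had one, against 8.77%. Of 26 TGF-β receptor, SMAD and SKI genes, 19 held a member (73.1%, against 43.7% by length). The type II receptor gene TGFBR2 held 14, 2 and 4, the inhibitory SMAD6 held 6, 1 and 2, and the ubiquitin ligase gene SMURF2 held 4, 0 and 2. SMAD3 alone held 40 of the 87 members of the list.

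Of 27 YAP, TEAD and Hippo genes, 19 held a member (70.4%, against 45.7% by length). The DNA-binding factor TEAD1 held 25, 5 and 12 BRG1 peaks in control, KO1 and KO2, its coactivator TAZ (WWTR1) 18, 4 and 5, and the upstream regulators PTPN14 and WWC1 12, 3 and 3, and 11, 2 and 6. Of 34 Wnt genes, 19 held a member (55.9%, against 41.5%), and TNIK and TCF7L2 had most. ZNRF3, a ubiquitin ligase that removes Wnt receptors, held 12, 0 and 3. Of 22 genes for the EGFR family, MET and their ligands, 14 held one (63.6%, against 46.7%). EGFR held 13, 1 and 7 and MET 8, 3 and 3.

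Adhesion and cytoskeleton genes were also above their length classes. Of 44 integrin and focal adhesion genes, 34 held a member (77.3%, against 52.5%), and 22 had a body peak in KO1 (24.8% by length) and 28 in KO2 (34.2% by length). ASAP1, an Arf GTPase-activating protein, held 21, 2 and 7 peaks and BCAR3, an adaptor of BCAR1, 14, 1 and 6. Of 68 actin and actin regulator genes, 40 held a member (58.8%, against 45%). The crosslinker ACTN4 held 15, 3 and 4, the membrane linker EZR 15, 0 and 2 and the myosin MYO1E 15, 4 and 10. No KO peak overlapped 15 of 15 members in EZR and 8 of 15 in MYO1E, against 84.0% of all members. EZR had 4 members in the highest signal quintile and MYO1E had 7, and the difference between the genes was not tested.

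**Figure D5:**
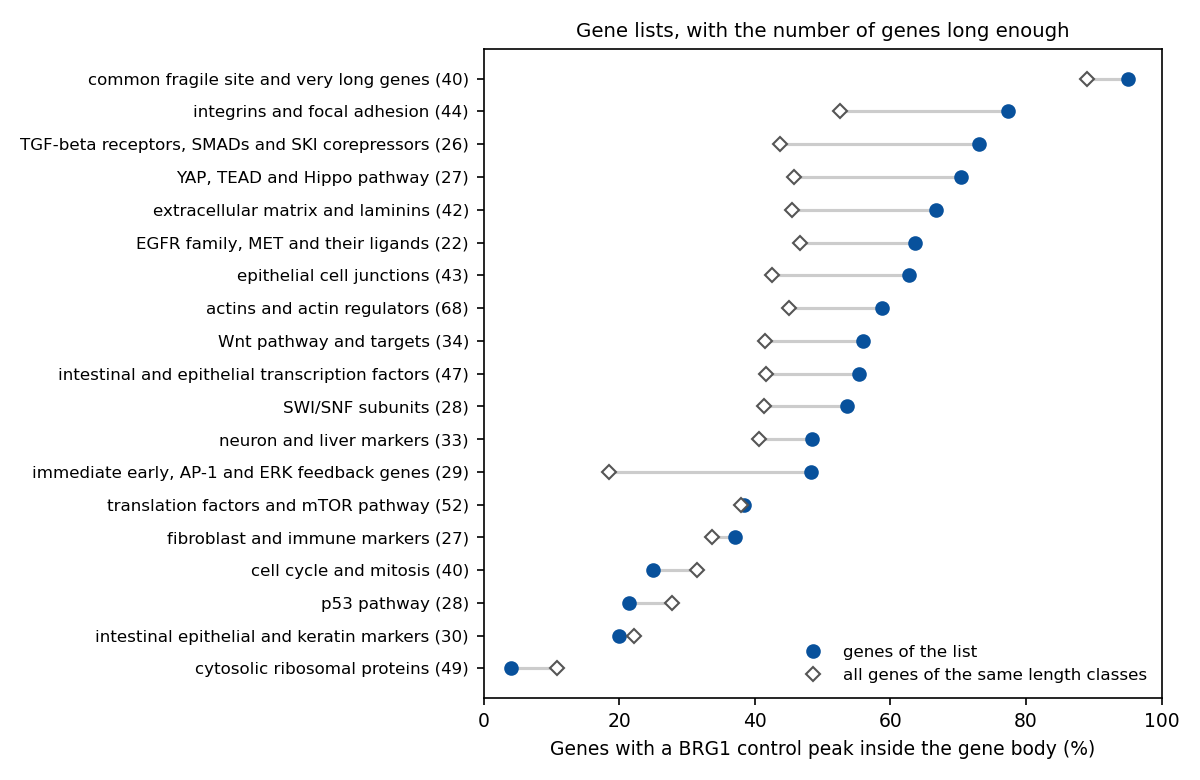
Percent of genes with a BRG1 control peak inside the gene body (x axis) for 19 gene lists (rows, with the number of genes long enough to have an interior); filled circles are the genes of the list and open diamonds the share of all genes of the same length classes. The widest gaps are 48.3% against 18.5% for immediate early, AP-1 and ERK feedback genes and 73.1% against 43.7% for TGF-β genes, and ribosomal protein genes lie below, 4.08% against 10.8%.

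Epithelial junction genes held a member in 27 of 43 cases (62.8%, against 42.5% by length), with MAGI1, a junction scaffold, at 15, 7 and 5 peaks in control, KO1 and KO2. The polarity gene PARD3 held 14, 6 and 9. Extracellular matrix and laminin genes held one in 28 of 42 cases (66.7%, against 45.5%), among them the protease inhibitor TIMP2 with 8, 1 and 3. Of 47 intestinal and epithelial transcription factors, 26 held a member (55.3%, against 41.6%). RUNX1 held 17, 1 and 3 and GRHL2, a factor of epithelial identity, 10, 5 and 9. Of 28 SWI/SNF subunit genes, 15 held one (53.6%, against 41.4%), with ARID1B, a subunit of BAF complexes, at 11, 2 and 2.

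The other lists were nearer to or below their length classes. Of 52 translation factor and mTOR genes, 20 held a member (38.5%, against 37.9%), and RPS6KA2, a kinase downstream of ERK, held 14, 4 and 4 peaks. Of 49 cytosolic ribosomal protein genes, 2 held a member, RPL13 and RPS19 with 1 each (4.08%, against 10.8%), and none had a KO body peak, where length gives 1.95% in KO1 and 3.94% in KO2. Cell cycle genes held one in 10 of 40 cases (25%, against 31.4%) and p53 pathway genes in 6 of 28 (21.4%, against 27.8%). CDK6, which drives entry into the cell cycle, held 8, 0 and 1. Genes of common fragile sites and other very long genes held one in 38 of 40 cases (95%, against 89.0%) but at 0.354 members per 100 kb, against 0.833 by length, and 94.4% of those members had no KO peak, against 84.0% of all members.

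Marker genes of the cells themselves were checked the same way. Of 9 intestinal epithelial markers, 3 held a member, the keratin gene KRT8 with 11, the E-cadherin gene CDH1 with 5 and CDH17 with 2. CDX2, EPCAM, KRT18, KRT20, VIL1 and LGALS4 held none. Over the wider list of 30 intestinal and keratin markers, 6 held a member (20%, against 22.2% by length). Markers of neurons and liver held one in 16 of 33 cases (48.5%, against 40.6%), led by RBFOX3 and GRIN2B, a glutamate receptor gene with 12, and fibroblast and immune markers in 10 of 27 (37.0%, against 33.8%). The length-matched shares of intestinal markers were thus not above those of other tissues, and peak lists give no expression to set beside them.

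Genes with a member also had a BRG1 control peak at their own 5′ end more often than genes without, at 33.8% (95% Wilson interval 32.5 to 35.1) against 27.7% (26.8 to 28.6). In genes of 2 to 10 kb the values were 38.0% and 22.7%, and in genes of 100 to 300 kb 31.6% and 28.7%. Most genes with gene body peaks therefore had no listed peak at the 5′ end. The 3′ end differed in the same direction, at 4.94% of genes with a member against 3.81% of those without. The values there were 11.3% and 5.56% in genes of 2 to 10 kb, and 3.34% and 1.79% in genes of 100 to 300 kb. The difference was thus not particular to the 5′ end.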

How the data were processed

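BRG1 and Flag-actin were measured by CUT&RUN in 8 libraries of HCT-116 cells, with a peak list for each. The submitters' processing notes name the build hg38 and the tools Trim Galore 0.4.5, BWA, bedtools 2.30.0, MACS2 and SEACR, with no settings; list names carry thresholds of 0.01 (antibody) and 0.005 (IgG). The authors deposited the total and maximum signal of each peak; the labels do not state its normalisation, so it was used only to rank peaks within a list. Read depths are not given, and no interval rests on them.

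Members were found, joined to RefSeq genes (GRCh38.p14) and overlapped with the other lists (at least 1 bp) with Python 3.11.15, pandas 2.3.3 and numpy 2.4.6; the interval code was tested on simulated data against bedtools 2.31.1. Strand was known for 15812 of 19974 protein-coding genes. All 719 gene list entries matched a symbol. Members, lists and rules were chosen with earlier results of these data known. Named genes are the 10 with most members and the 10 densest with at least 5, the 10 strongest members of all, in both KO lists, in neither and with Flag-actin, up to 4 genes per list, and SETD3, SMARCA4 and SMARCA2; of these the text leaves out some list genes. MYH9, ANKRD11, MACF1 and the sequences were chosen after their values were seen. Alternatives are given at the end.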

Additional observations from a re-analysis of the deposited data

How the results depend on the processing

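No paired analysis was possible because no result comes from a test over samples and each antibody has 1 control library. The rule gave 15227 members, and 24197 without removal of IgG sites; the other choices gave counts within 1.5 times. Genes with a member numbered 6183, and 2502 in the upper part of the list by signal. The share of members with no KO peak, 84.0%, was 57.4% without IgG removal, 83.4% with the BRG1 arm IgG list only, 90.3% where 50% of the member had to be covered, 78.0% with a gap of up to 500 bp, 85.9% in the upper parts of the lists, 63.6% with BRG1 lists of equal length, 84.6% over 1 kb from every listed start (chosen after seeing the data), and 87.3 to 92.4% with either KO library left out. The Flag-actin control share, 4.02%, was 26.8% without IgG removal, 5.19% with the BRG1 arm IgG list only, 3.59% over 5 kb from gene ends, 2.93% and 7.53% with the covered and gap rules, 1.93% in the upper parts and 3.23% for members over 100 bp wide.

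The share with no KO peak was 5.83 points higher inside genes than at gene ends (95% interval 4.68 to 6.98). Within signal quintiles from lowest to highest it was 3.57, 3.09, 3.29, 3.36 and -6.07 points, so the direction turned in the highest. Against far peaks it was -0.685 points in all and 1.32, 0.356, 1.16, -2.10 and 0.436 within quintiles. The cause was not tested. The density ratio of the nearest to the farthest band, 3.65, was 3.89 and 3.93 under its alternatives. List lengths and thresholds, with 1 control library, limit every comparison with KO; a peak absent from a list may still hold signal.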
